A study of Mus musculus with 9 samples.

Results

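Gene expression was compared between arrays titled eosinophils and arrays titled macrophages, 2 arrays of each, chosen by title from the 9 Affymetrix mouse arrays of a study of lung inflammation. The other arrays, 3 of a population called T2M and 2 titled neutrophils, entered only the choice of probe set per gene and the estimate of the spread. They are given as levels where useful. All groups came from female 4get mice on the BALB/c background, aged 6 to 8 weeks, whose cells carry a green fluorescent protein (GFP) reporter of the Il4 gene. On each of 4 days the mice had been given 0.5 µg of interleukin-25 (IL-25), in a volume of 50 µL, through the trachea, so that neither group is an untreated control. Each array held RNA of 400000 cells sorted after collagenase digestion, red cell lysis and magnetic enrichment for CD11b, pooled from 4 donor mice, and amplified from 50 ng of RNA. The eosinophil gate took cells negative for the reporter and for F4/80, positive for the interleukin-5 receptor alpha chain (IL-5rα) and CD11b, low in MHC class II and high in Gr-1. The macrophage gate took cells negative for the reporter, IL-5rα and Gr-1 and positive for F4/80, MHC class II and CD11b.

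Eosinophils and neutrophils are short-lived granulocytes that leave the bone marrow with their toxic proteins already packed into granules. Eosinophil granules hold the major basic protein and eosinophil peroxidase, and neutrophil granules are formed in successive waves, from primary (azurophil) to secondary (specific) and tertiary (gelatinase) granules. Lung macrophages and dendritic cells are longer-lived phagocytes, and those that present antigen carry MHC class II molecules. IL-25 is an epithelial cytokine that drives type 2 inflammation, in which eosinophils enter the lung and macrophages take on an alternatively activated state.

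Levels are the deposited log2 values, on which a difference of 1 is a 2-fold difference, and they do not compare 1 gene with another. Array medians over all probe sets were 5.53 and 5.56 on the eosinophil-labelled arrays and 5.48 and 5.53 on the macrophage-labelled arrays. The 2 macrophage-labelled arrays correlated at 0.995 over genes and the 2 eosinophil-labelled arrays at 0.955, and whether the former hold 2 pools or 1 RNA on 2 arrays was not tested. In a control for RNA integrity, the 3′ minus 5′ difference of the actin control probe sets was 0.54 on eosinophil replicate 1 and between -0.03 and -0.01 on the other 3 arrays compared. A gene was called where the adjusted p (limma fit to all 9 arrays, Benjamini-Hochberg over 18193 genes) was under 0.05, which 5.89% of genes met as higher and 11.5% as lower on the eosinophil-labelled arrays. Each log2 difference is eosinophil-labelled minus macrophage-labelled, and its p measures the spread between these arrays, which may be technical. Fits were repeated with 1 of the 4 arrays compared left out. These 4 leave-out fits are always given in the order eosinophil replicate 1, eosinophil replicate 2, macrophage replicate 1, macrophage replicate 2. Each leaves 1 label with 1 array and no spread of its own. The median SE was 0.34 with all arrays, 0.41 without an eosinophil-labelled and 0.45 without a macrophage-labelled array. Whether a lost call reflects this larger SE or the array left out was not tested.

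The labels and the defining markers did not go together. Epx, eosinophil peroxidase, was at 5.01 and 5.09 on the eosinophil-labelled arrays and at 4.57 and 4.50 on the macrophage-labelled arrays (log2 difference 0.51, SE 0.42, adjusted p = 0.406). Prg2, the major basic protein, was at 5.93 and 6.05 against 4.78 and 4.76 (adjusted p = 0.55), and Ccr3, the eotaxin receptor, at 5.69 and 4.97 against 4.79 and 4.60 (adjusted p = 0.602). Prg2 was called higher when only the 4 arrays compared entered the fit (adjusted p = 0.00981). These defining eosinophil genes were thus near or below the array median on both labels and did not pass the test. Fewer cells of a type and less RNA of a gene per cell cannot be told apart in such sorted bulk samples. On the T2M-labelled arrays Ccr3 was at 10.58, 9.20 and 9.82 and Prg2 at 7.72, 10.69 and 11.22. Il5ra, on which the eosinophil gate selected, was at 5.77 and 4.60 against 3.85 and 3.71 (adjusted p = 0.179, and 0.0245 with array weights in limma). The mean level of 12 eosinophil genes was 7.50 and 6.77 on the eosinophil-labelled arrays, 5.53 and 5.38 on the macrophage-labelled arrays, 7.49 and 6.34 on the neutrophil-labelled arrays and 9.32 to 9.50 on the T2M-labelled arrays. That of 18 neutrophil genes was 11.65 and 11.94, 6.99 and 6.06, 9.13 and 7.86 and 8.69 to 9.23 in the same order, and so highest on the arrays titled eosinophils. The populations are therefore called eosinophil-labelled and macrophage-labelled throughout, and which cells the eosinophil-labelled arrays hold was not tested.

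Of the genes behind the gates, the MHC class II genes went with the labels and the others did not pass the test. H2-Ab1, the MHC class II beta chain, was at 10.40 and 10.53 on the eosinophil-labelled and 13.11 and 13.27 on the macrophage-labelled arrays (log2 difference -2.73, SE 0.63, adjusted p = 0.0215). H2-Eb1 (-2.98), Cd74, the invariant chain (-2.12), and H2-Aa (-1.50) were lower as well. Cd74 lost the call without any 1 of the 4 arrays (log2 differences -1.84 to -2.41, adjusted p = 0.0801 to 0.172) or T2M replicate 3 (-2.12, adjusted p = 0.0565), and H2-Aa without any 1 of the 4 arrays (log2 differences -1.31 to -1.68, adjusted p = 0.0893 to 0.186). Adgre1, which encodes F4/80, was at 9.45 and 8.59 against 9.86 and 9.65 (adjusted p = 0.232), and Itgam, which encodes CD11b, at 10.04 and 10.77 against 8.55 and 8.72 (adjusted p = 0.076). Itgam was called higher when only the 4 arrays entered the fit (adjusted p = 0.0141). Il4 was just below the array median on all 4 arrays, at 5.10 and 5.37 against 4.89 and 4.77 (adjusted p = 0.691). The genes of the Gr-1 antigens were not analysed here. Of the 8 gate genes, 4 were called lower and 0 higher, beside 11.5% and 5.89% of all genes, and 1, 0, 0 and 0 were called lower in the 4 leave-out fits.

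Promoter sequences are shown for genes of 3 groups that the results turn on, each ending at the base before the RefSeq transcription start (build GRCm38.p6). The windows of the first group belong to granule genes of neutrophils, those of the second to interferon-induced genes and those of the third to MHC class II genes. Capitals mark the match to a motif, read on either strand. For Olfm4 (chr14:80000212-80000301, plus strand) and Lcn2 (chr2:32387740-32387829, minus strand) the capitals mark the motif GAGGAAG, a form of the site of the myeloid factor PU.1. For Ltf (chr9:111019202-111019291, plus strand) they mark the motif TTGCNNAA, a form of the C/EBP site.
Olfm4: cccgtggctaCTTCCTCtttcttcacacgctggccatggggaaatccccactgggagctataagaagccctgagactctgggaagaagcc
Lcn2: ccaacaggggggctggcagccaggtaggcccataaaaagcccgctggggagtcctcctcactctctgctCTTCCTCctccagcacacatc
Ltf: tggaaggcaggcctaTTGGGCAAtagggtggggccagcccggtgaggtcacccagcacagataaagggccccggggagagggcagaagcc
For Ifit1 (chr19:34640769-34640888, plus strand) and Gbp2 (chr3:142620543-142620662, plus strand) the capitals mark the motif GAAANNGAAA, the core of the interferon-stimulated response element.
Ifit1: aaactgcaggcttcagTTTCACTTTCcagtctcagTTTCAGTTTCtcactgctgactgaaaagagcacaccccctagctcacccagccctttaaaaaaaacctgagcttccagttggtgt
Gbp2: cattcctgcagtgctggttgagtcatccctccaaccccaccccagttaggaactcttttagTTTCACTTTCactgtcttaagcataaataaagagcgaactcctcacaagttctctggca
For H2-Eb1 (chr17:34305777-34305866, plus strand), H2-Aa (chr17:34287824-34287913, minus strand) and H2-Oa (chr17:34092289-34092378, plus strand) they mark ATTGG, the core of the Y-box that MHC class II promoters share. This last motif was added after the values were seen.
H2-Eb1: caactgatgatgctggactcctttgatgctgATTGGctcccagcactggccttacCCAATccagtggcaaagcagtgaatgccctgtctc
H2-Aa: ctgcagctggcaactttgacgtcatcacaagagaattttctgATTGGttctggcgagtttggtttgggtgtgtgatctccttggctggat
H2-Oa: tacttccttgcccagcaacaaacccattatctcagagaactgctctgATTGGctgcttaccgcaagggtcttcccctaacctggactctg

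Matches were counted in the 250 bases before the start, on both strands, for the 14452 of 18193 genes with a window. GAGGAAG was found in 1534 of all windows (10.6%), in 118 of 855 windows of genes called higher on the eosinophil-labelled arrays (13.8%) and in 195 of 1712 of genes called lower (11.4%). Among secondary and tertiary granule genes it was in 6 of 13 windows, and among primary granule genes, none of which was called, in 5 of 6. GAAANNGAAA was in 10 of 21 windows of the interferon response list, against 2.63% of all windows. It was in 4 of 9 windows of the members called higher and in 6 of 11 of those not called. ATTGG was in 6 of 7 windows of MHC class II genes and in 35.7% of all windows. CACGTG, the E-box bound by the lysosomal regulators of the MiT family, was in 10 of 39 windows of lysosome genes and in 7.56% of all. It stood in 2 of 6 windows of the lysosome genes called higher, 2 of 7 of those called lower and 6 of 26 of those not called. TTGCNNAA was in 4 of 10 windows of the secondary and tertiary granule genes called higher, in 0 of 3 of the others of that wave, in 0 of 6 of primary granule genes and in 8.07% of all windows.

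Of 18193 genes, 1071 (5.89%) were called higher and 2092 (11.5%) lower on the eosinophil-labelled arrays, at an adjusted p under 0.05 in the fit of all 9 arrays. In the 4 leave-out fits, 695, 750, 421 and 423 genes were called higher and 1287, 1074, 441 and 567 lower. With the macrophage-labelled arrays averaged as 1 sample the counts were 420 and 487, and without either neutrophil-labelled array 1657 and 2663. The median difference over all genes was 0.18, and the 2 labels did not overlap for 77.8% of genes, with the eosinophil-labelled arrays above for 46.1% and below for 31.7%. Quantile normalization moved the median to 0.05 and the share of lower among called genes from 66.1% to 56.2%, and a common array median gave 0.28 and 58.3%.

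**Figure D1:**
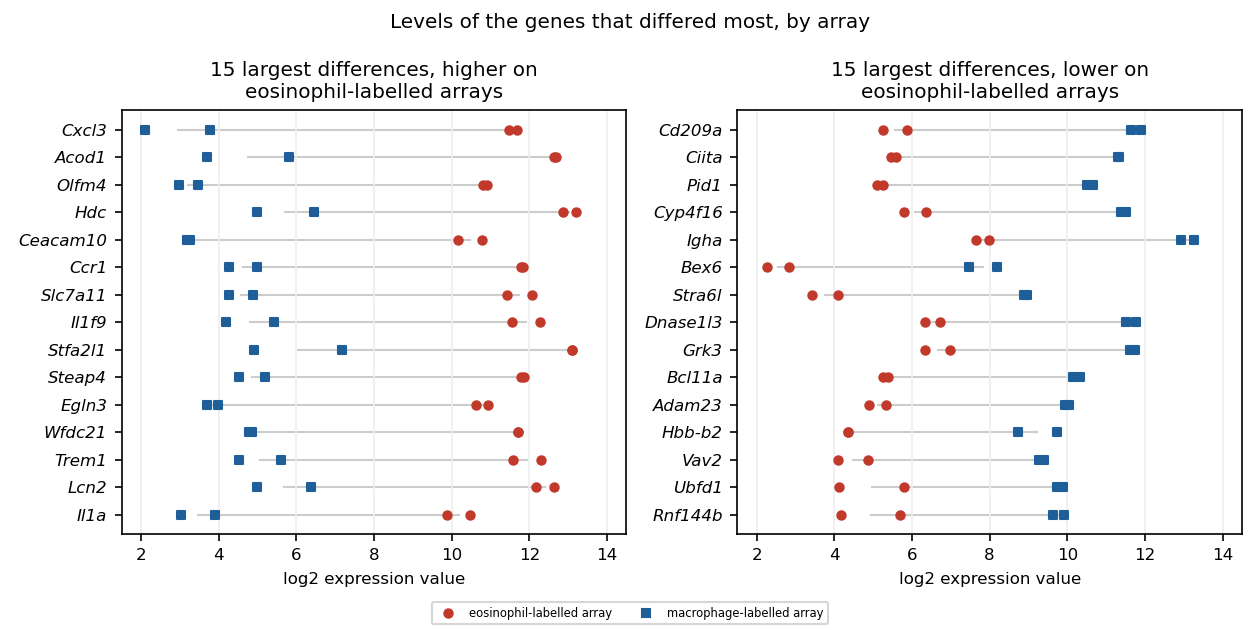
Log2 expression values of the 15 genes with the largest called difference in each direction, 1 point per array. In every gene shown the 2 eosinophil-labelled arrays (circles) lie apart from the 2 macrophage-labelled arrays (squares), as the choice of the genes required.

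The 15 largest differences on the eosinophil-labelled side held 4 cytokine, chemokine or chemokine receptor genes, Cxcl3, Ccr1, Il1f9 and Il1a, and 3 granule genes, Olfm4, Ceacam10 and Lcn2. Cxcl3, a chemokine that recruits neutrophils, was at 11.48 and 11.69 on the eosinophil-labelled arrays and at 3.78 and 2.11 on the macrophage-labelled arrays (log2 difference 8.64, SE 0.53, adjusted p = 0.0001). It was the largest difference of all, and the macrophage-labelled values lay far below the array median. Acod1, which makes the antimicrobial metabolite itaconate, was at 12.64 and 12.70 against 5.82 and 3.69 (log2 difference 7.92, SE 0.76, adjusted p = 0.000577). Hdc, histidine decarboxylase, which makes histamine, was at 12.86 and 13.20 against 6.45 and 4.98 (log2 difference 7.31, SE 0.85, adjusted p = 0.00127). Slc7a11, the cystine transporter, differed by 7.17 (SE 0.40), Steap4, a metalloreductase, by 6.96 (SE 0.40), and Egln3, a prolyl hydroxylase of hypoxia-inducible factor, by 6.93 (SE 0.39). All 15 genes at the top kept the call in each of the 4 leave-out fits.

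On the other side, Cd209a, a C-type lectin of the DC-SIGN family, was at 5.86 and 5.25 on the eosinophil-labelled and 11.90 and 11.65 on the macrophage-labelled arrays (log2 difference -6.22, SE 0.65, adjusted p = 0.000805). Ciita, the master activator of MHC class II transcription, was at 5.47 and 5.58 against 11.33 and 11.31 (log2 difference -5.80, SE 0.68, adjusted p = 0.00128). Igha, the constant region of the immunoglobulin A heavy chain, was at 7.97 and 7.65 against 12.93 and 13.26 (log2 difference -5.29, SE 0.33, adjusted p = 0.000108). Igha is a plasma cell transcript, and it was at 8.60, 9.35 and 9.05 on the T2M-labelled and 8.81 and 9.37 on the neutrophil-labelled arrays. Dnase1l3, a secreted DNase of dendritic cells and macrophages, differed by -5.12 (SE 0.38), and Bcl11a, a transcription factor of lymphoid and plasmacytoid dendritic cells, by -4.92 (SE 0.53). Also among the 15 were Pid1 (-5.41), the cytochrome P450 gene Cyp4f16 (-5.37), Bex6 (-5.28), the retinol receptor-like gene Stra6l (-5.16), the receptor kinase Grk3 (-5.03), Adam23 (-4.88), the exchange factor Vav2 (-4.85), Ubfd1 (-4.85) and the ubiquitin ligase Rnf144b (-4.84). The globin gene Hbb-b2, a red cell transcript, was the remaining one, at 4.35 and 4.35 against 8.73 and 9.72 (log2 difference -4.88, SE 0.81, adjusted p = 0.0056). It lost the call without macrophage replicate 2 (-4.38, adjusted p = 0.055).

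**Figure D2:**
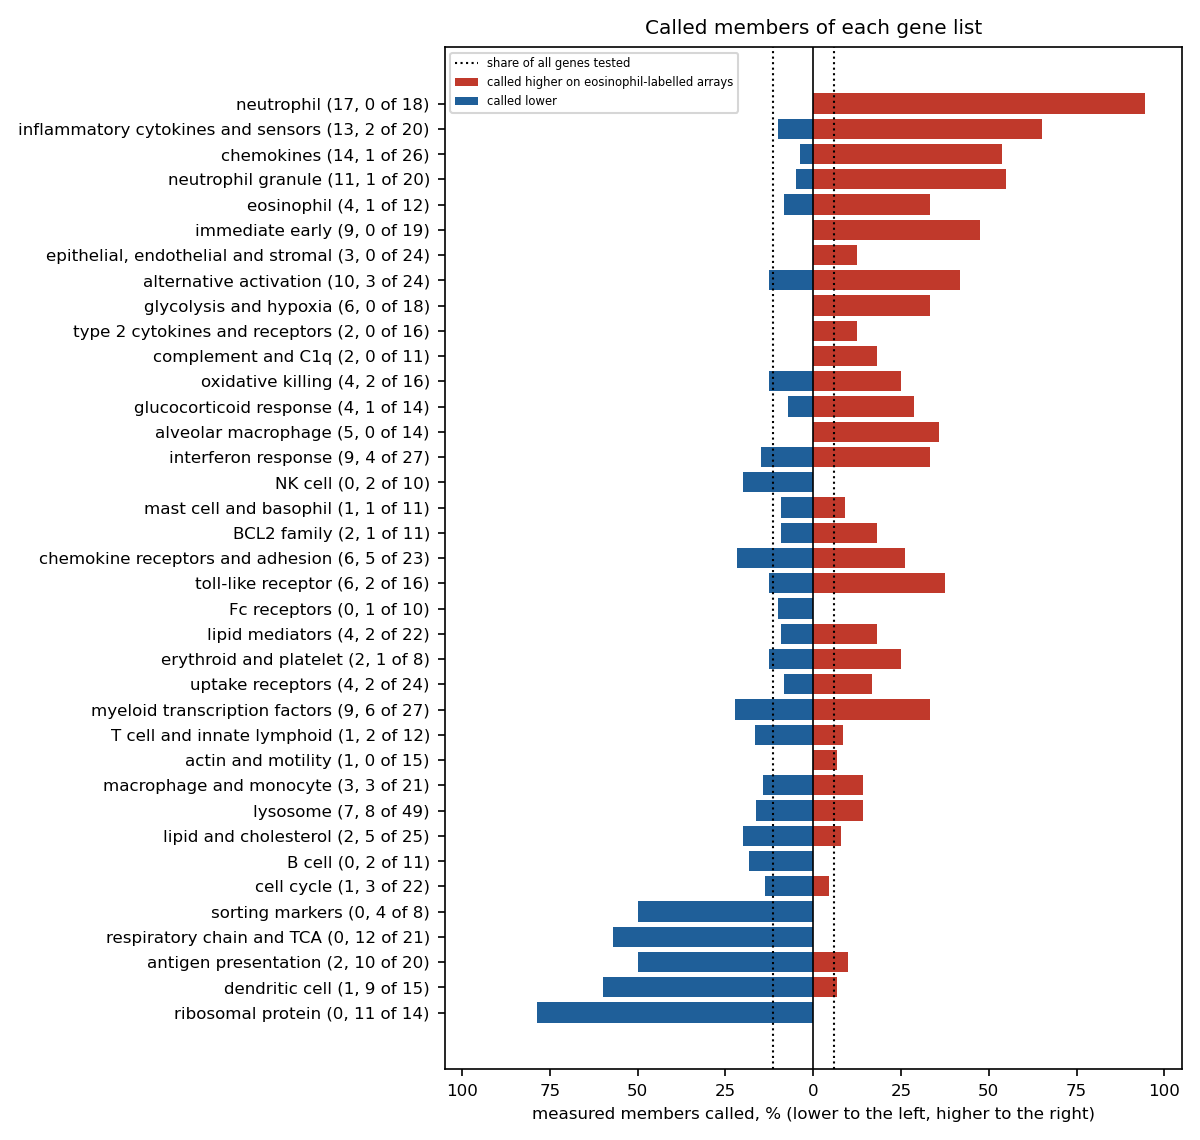
Share of the measured members of each gene list called higher (right) or lower (left) on the eosinophil-labelled arrays, in percent, with the counts higher and lower of those measured beside the name, in the order of the list's median difference. Dotted lines mark the shares over all genes, 5.89% and 11.5%. The neutrophil list has the largest share called higher (17 of 18) and the ribosomal protein list the largest called lower (11 of 14).

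Neutrophil genes were nearly all higher on the eosinophil-labelled arrays. Of 18 measured, 17 were called higher and 0 lower, with a median difference of 5.10 against 0.18 over all genes and 5.89% called. Cxcr2, the receptor that guides neutrophils to CXC chemokines, was at 11.57 and 11.64 against 6.71 and 5.89 (log2 difference 5.30, SE 0.44, adjusted p = 0.000316). Its level on the neutrophil-labelled arrays was 9.71 and 8.55, below both eosinophil-labelled arrays. Tnfrsf23, a decoy receptor of the death ligand TRAIL, was at 10.19 and 10.53 against 5.59 and 4.87 (log2 difference 5.13, SE 0.67, adjusted p = 0.0021). Csf3r, the receptor of the neutrophil growth factor G-CSF, was at 12.00 and 12.78 against 9.20 and 9.05 (log2 difference 3.27, SE 0.73, adjusted p = 0.0182). Its call ended without any 1 of the 4 arrays except eosinophil replicate 1 (log2 differences 2.88 to 3.34, adjusted p = 0.0964 to 0.107). Trem1, an activating receptor of neutrophils and monocytes, was at 11.59 and 12.30 against 5.60 and 4.53 (log2 difference 6.88, SE 0.66, adjusted p = 0.000558). Clec4e, a sensor of mycobacterial glycolipids, differed by 6.68 (SE 0.32), and Fpr2, a receptor for formyl peptides, by 4.94 (SE 0.77).

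Genes of secreted and cytosolic neutrophil proteins were higher as well. Stfa2l1, of the stefin family of cysteine protease inhibitors, was at 13.09 and 13.11 against 7.17 and 4.92 (log2 difference 7.06, SE 0.84, adjusted p = 0.00141). Wfdc21, a small secreted protein with a protease inhibitor fold, was at 11.70 and 11.71 against 4.85 and 4.77 (log2 difference 6.90, SE 0.51, adjusted p = 0.000178). Lrg1, a secreted glycoprotein, differed by 5.40 (SE 0.47). S100a8, an abundant calcium-binding protein of neutrophils, was at 13.64 and 13.86 against 10.08 and 7.29 (log2 difference 5.07, SE 1.03, adjusted p = 0.0128). The 2 macrophage-labelled arrays lay far apart for S100a8, and its partner S100a9, at 13.60 and 13.45 against 11.35 and 8.47, was the member not called (adjusted p = 0.0557). The call of S100a8 ended without any 1 of the 4 arrays except macrophage replicate 1 (log2 differences 3.67 to 5.18, adjusted p = 0.052 to 0.0847). The 4 leave-out fits called 13, 11, 13 and 11 neutrophil genes higher.

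**Figure D3:**
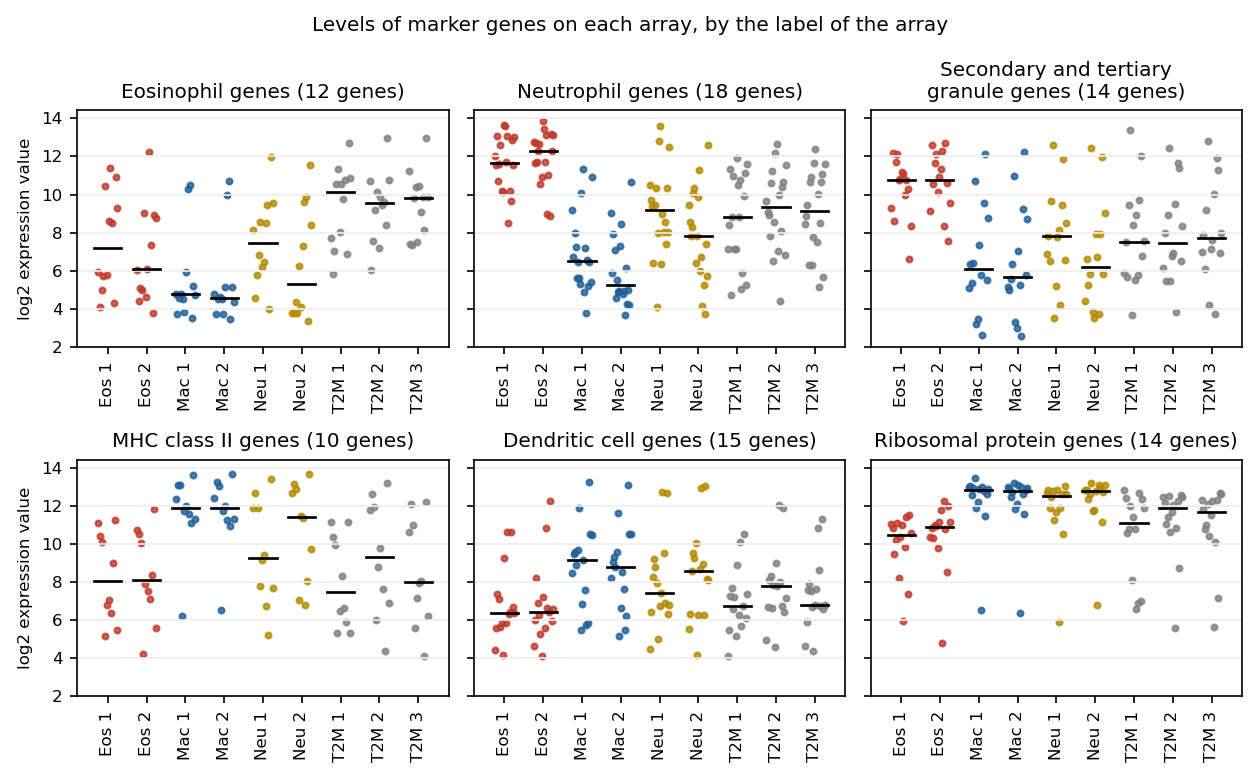
Log2 levels of the measured genes of 6 lists on each of the 9 arrays, 1 point per gene, with the median as a line. Arrays are named by label and replicate (Eos, eosinophil; Mac, macrophage; Neu, neutrophil). Neutrophil and secondary granule genes have their highest medians on the 2 eosinophil-labelled arrays, eosinophil genes on the T2M-labelled arrays, and MHC class II genes on the macrophage-labelled arrays.

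Of 14 secondary and tertiary granule genes, 11 were called higher and 1 lower, beside 5.89% and 11.5% of all genes. Their median difference was 4.11. Olfm4, a protein of specific granules in a subset of neutrophils, was at 10.82 and 10.90 on the eosinophil-labelled arrays and 3.47 and 2.98 on the macrophage-labelled arrays (log2 difference 7.64, SE 0.64, adjusted p = 0.000332). Lcn2, lipocalin, which binds bacterial siderophores, was at 12.18 and 12.63 against 6.37 and 4.99 (log2 difference 6.72, SE 0.53, adjusted p = 0.00025). Ceacam10, an adhesion-family member, was at 10.79 and 10.16 against 3.17 and 3.27 (log2 difference 7.25, SE 0.52, adjusted p = 0.000163) and at 3.69, 5.43 and 4.17 on the T2M-labelled arrays. Mmp9, gelatinase B, differed by 6.19 (SE 0.58), Mgam, maltase-glucoamylase, by 6.59 (SE 0.74), Camp, the cathelicidin precursor, by 4.10 (SE 0.62), and Mmp8, neutrophil collagenase, by 4.08 (SE 0.57). These 7 genes kept the call in each of the 4 leave-out fits. Ltf, lactoferrin, was at 9.29 and 9.13 against 5.07 and 5.12 (log2 difference 4.12, SE 0.70, adjusted p = 0.00606) and lost the call without macrophage replicate 1 (4.09, adjusted p = 0.0538). Cybb, the membrane subunit of the NADPH oxidase, was the member called lower, at 10.31 and 10.63 against 12.14 and 12.22 (log2 difference -1.71, SE 0.29, adjusted p = 0.00631), a call that ended without macrophage replicate 1 (-1.75, adjusted p = 0.0587) or macrophage replicate 2 (-1.67, adjusted p = 0.0603).

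None of the 6 primary granule genes was called in either direction. Mpo, myeloperoxidase, was at 4.75 and 5.48 against 4.46 and 4.65 (adjusted p = 0.221), and Elane, neutrophil elastase, at 4.06 and 4.06 against 3.47 and 3.52 (adjusted p = 0.118). Both stayed at or below the array median on all 4 arrays. Ctsc, the protease that activates granule enzymes, was high on both labels, at 10.30 and 8.99 against 11.12 and 11.11 (adjusted p = 0.0903). In the 4 leave-out fits 10, 9, 7 and 8 of the 20 granule genes of all waves were called higher.

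Eosinophil genes outside the granule were mixed. Siglecf, a sialic acid-binding lectin of eosinophils and alveolar macrophages, was at 10.47 and 9.01 against 4.48 and 4.52 (log2 difference 5.24, SE 0.77, adjusted p = 0.00326), and Alox15, a lipoxygenase, at 10.90 and 8.91 against 5.17 and 5.16 (log2 difference 4.74, SE 0.55, adjusted p = 0.00121). Serpinb2, a protease inhibitor of monocytes and eosinophils, was at 9.29 and 8.79 against 4.74 and 4.36 (log2 difference 4.49, SE 0.47, adjusted p = 0.000805). On the T2M-labelled arrays these were at 11.35, 10.13 and 10.41 (Siglecf), 12.72, 12.97 and 12.95 (Alox15) and 10.86, 10.74 and 9.85 (Serpinb2). The T2M-labelled levels of Alox15 and Serpinb2 lay above both eosinophil-labelled arrays, and those of Siglecf overlapped with them. Cd9, a tetraspanin, was called higher too (log2 difference 1.67, SE 0.44), a call that ended without any 1 of the 4 arrays except eosinophil replicate 1 (log2 differences 1.26 to 1.84, adjusted p = 0.134 to 0.19) or T2M replicate 2 (1.67, adjusted p = 0.0546). Adgre4, an adhesion receptor of the F4/80 family, was lower, at 8.48 and 7.32 against 10.52 and 10.71 (log2 difference -2.71, SE 0.47, adjusted p = 0.00691), a call that ended without macrophage replicate 1 (-2.81, adjusted p = 0.0535) or macrophage replicate 2 (-2.61, adjusted p = 0.0601). Gata1 (4.31 and 3.78 against 3.52 and 3.43), the eosinophil lineage factor, and Prg3 (4.10 and 4.42 against 3.73 and 3.72) were low on all 4 arrays. Ear1, Ear2, Ear6 and Clc were listed too but were not among the genes measured. In all, 4 of 12 eosinophil genes were called higher and 1 lower, beside 5.89% and 11.5% of all genes. The median difference was 1.31, against 0.18 over all genes. The eosinophil-labelled arrays lay above without overlap for 11 members and below for 1, beside 46.1% and 31.7% of all genes. The 4 leave-out fits gave 4, 4, 3 and 3 higher and 1, 1, 0 and 0 lower calls, with medians of 0.75, 1.21, 1.35 and 1.28.

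Chemokines were widely higher on the eosinophil-labelled arrays. Of 26 measured, 14 were called higher and 1 lower, beside 5.89% and 11.5% of all genes, with a median difference of 2.41. The neutrophil-attracting CXC group was among them. Cxcl2 was at 12.95 and 12.98 against 9.29 and 7.72 (log2 difference 4.45, SE 0.47, adjusted p = 0.000836) and Cxcl1 at 12.05 and 11.49 against 7.50 and 7.63 (log2 difference 4.21, SE 0.39, adjusted p = 0.000485). The eosinophil-labelled arrays were within the range of the T2M-labelled arrays for Cxcl1, at 12.26, 11.91 and 11.47, and of the neutrophil-labelled arrays, at 12.22 and 11.30. The macrophage-labelled arrays were below all 7 others for Cxcl1, Cxcl2 and Cxcl3. Among CC chemokines, Ccl8, a ligand of several CC receptors, was at 10.45 and 10.31 against 4.14 and 4.42 (log2 difference 6.10, SE 0.53, adjusted p = 0.000387), and Ccl4, which attracts monocytes and T cells, at 11.30 and 13.10 against 8.22 and 7.11 (log2 difference 4.53, SE 0.57, adjusted p = 0.00168). Pf4, platelet factor 4, which macrophages also make, was at 9.27 and 8.91 against 4.57 and 4.96 (log2 difference 4.33, SE 0.47, adjusted p = 0.000994). The 4 leave-out fits called 12, 14, 11 and 12 chemokines higher. The 1 lower member, Ccl9 (log2 difference -0.92, SE 0.26), was named after its value was seen, and lost the call without any 1 of the 4 arrays (log2 differences -0.71 to -1.13, adjusted p = 0.0625 to 0.222), T2M replicate 2 (-0.92, adjusted p = 0.05) or T2M replicate 3 (-0.92, adjusted p = 0.0675). Cxcl9, an interferon-gamma target, was at 6.01 and 5.86 against 7.67 and 7.15 (adjusted p = 0.243).

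**Figure D4:**
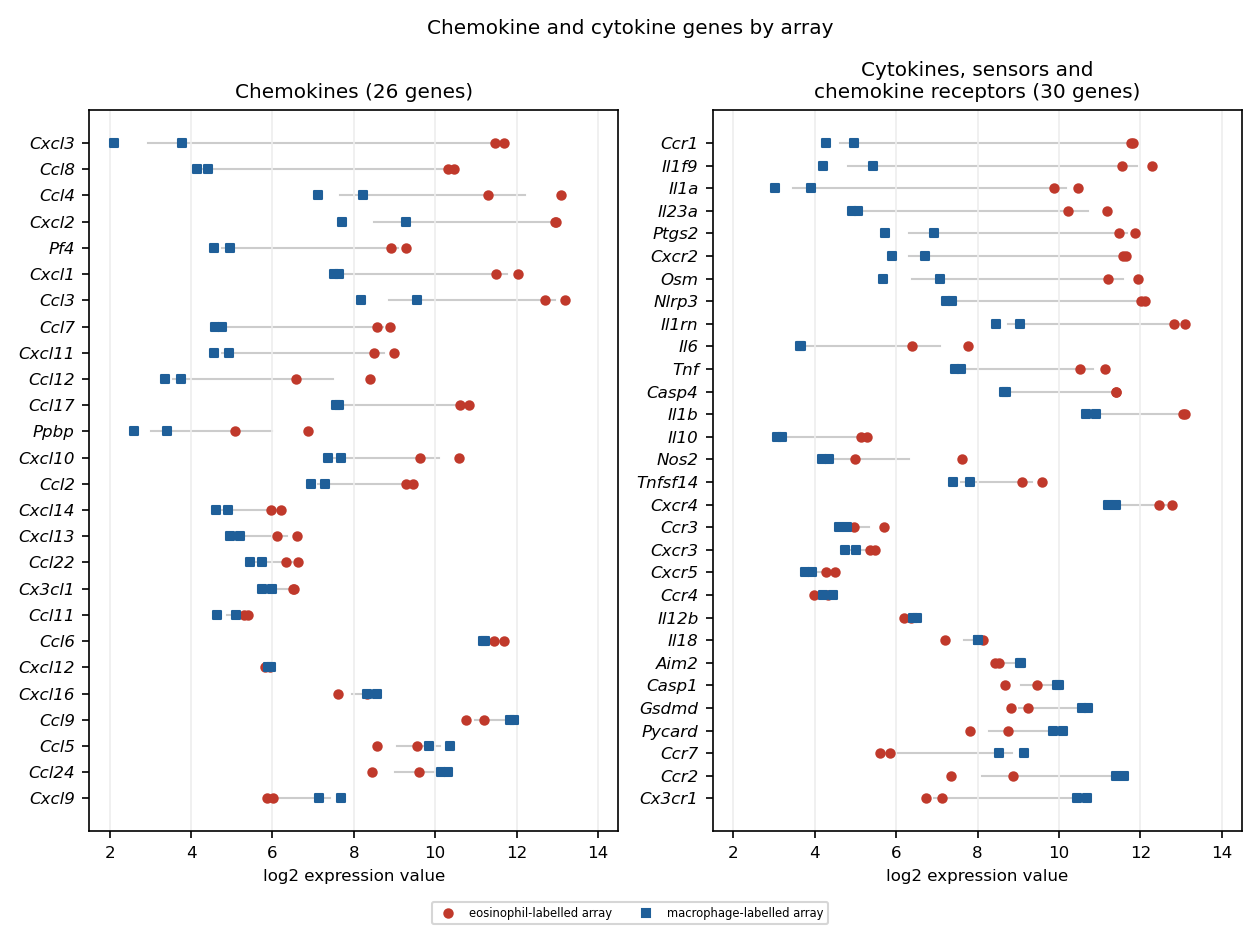
Log2 expression values of 26 chemokine genes (left) and 30 cytokine, sensor and chemokine receptor genes (right), 1 point per array, in the order of the difference. For most chemokines both eosinophil-labelled arrays lie to the right of both macrophage-labelled arrays, while Ccr2, Cx3cr1 and Ccr7 at the foot of the right panel lie the other way.

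Inflammatory cytokines followed the same direction (median difference 2.50). Of 20 members of the list, 13 were called higher and 2 lower, beside 5.89% and 11.5% of all genes. The lower ones, named after their values were seen, were the inflammasome adaptor Pycard (-1.69) and the pore-forming Gsdmd (-1.61). Pycard lost the call without any 1 of the 4 arrays except eosinophil replicate 2 (log2 differences -1.23 to -1.82, adjusted p = 0.0847 to 0.139) and Gsdmd without any 1 of the 4 arrays except eosinophil replicate 2 (log2 differences -1.41 to -1.68, adjusted p = 0.0784 to 0.116), and the probe set of largest variance gave 1.52 for Pycard (adjusted p = 0.248). Il1a was at 10.47 and 9.89 against 3.91 and 3.02 (log2 difference 6.71, SE 0.40, adjusted p = 9.57e-05). Il1b, the secreted form of interleukin-1, was already high on the macrophage-labelled arrays, at 13.04 and 13.10 against 10.91 and 10.67 (log2 difference 2.28, SE 0.22, adjusted p = 0.000554). Il1f9, interleukin-36 gamma, was at 11.54 and 12.28 against 5.42 and 4.19 (log2 difference 7.11, SE 0.82, adjusted p = 0.00123). Il23a, a subunit of interleukin-23, was at 11.19 and 10.22 against 4.92 and 5.07 (log2 difference 5.71, SE 0.44, adjusted p = 0.000226), and at 5.68, 6.51 and 5.49 on the T2M-labelled and 5.84 and 5.22 on the neutrophil-labelled arrays. The eosinophil-labelled arrays thus stood above all 7 others for Il23a. Genes that restrain interleukin-1 were higher too. Il1rn, the receptor antagonist, differed by 4.21 (SE 0.29, adjusted p = 0.000157), and Il1r2, the decoy receptor, was at 12.23 and 12.30 against 6.29 and 5.22 (log2 difference 6.51, SE 0.37, adjusted p = 9.31e-05). Osm, oncostatin M, differed by 5.20 (SE 0.71) and Nlrp3, the inflammasome sensor, by 4.77 (SE 0.45). Members without a call included Nos2, inducible nitric oxide synthase, at 4.98 and 7.62 against 4.18 and 4.34 (adjusted p = 0.0822), where the 2 eosinophil-labelled arrays lay far apart. The counts in the 4 leave-out fits were 12, 12, 11 and 10 higher and 0, 2, 0 and 0 lower.

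Of the toll-like receptors and their partners, 6 of 16 genes were called higher and 2 lower, beside 5.89% and 11.5% of all genes. Tlr4, the lipopolysaccharide receptor, was at 12.03 and 12.02 against 7.83 and 7.84 (log2 difference 4.19, SE 0.41, adjusted p = 0.000595), and its co-receptor Cd14 at 12.46 and 13.41 against 9.07 and 8.08 (log2 difference 4.36, SE 0.48, adjusted p = 0.00103). Tlr2, a lipoprotein receptor, differed by 3.88 (SE 0.62), its partner Tlr6 by 2.43 (SE 0.28) and the adaptor Tirap by 2.94 (SE 0.40). Tlr3, a sensor of double-stranded RNA, was lower, at 3.69 and 3.59 against 6.80 and 6.31 (log2 difference -2.91, SE 0.51, adjusted p = 0.00725), and lost the call without macrophage replicate 1 (-2.67, adjusted p = 0.0739). Tlr9, a sensor of unmethylated DNA, was the other (log2 difference -1.34, SE 0.38), named after its value was seen, and lost the call without any 1 of the 4 arrays except eosinophil replicate 2 (log2 differences -0.93 to -1.37, adjusted p = 0.176 to 0.221), T2M replicate 2 (-1.34, adjusted p = 0.0545) or T2M replicate 3 (-1.34, adjusted p = 0.0655). With quantile normalization Tlr9 was not called (-0.81, adjusted p = 0.24). Tlr7 was at 7.59 and 7.44 against 8.17 and 8.29 (adjusted p = 0.303) by its main probe set, but its probe set of largest variance was called lower (-2.72, adjusted p = 0.0276). Tlr8 was at 7.36 and 8.03 against 6.97 and 7.23 (adjusted p = 0.513). The median over the list was 0.35, and 0.57, 0.23, 0.39 and 0.33 in the 4 leave-out fits, which called 1, 2, 0 and 1 members lower.

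Chemokine receptors divided between the labels. Ccr1, a receptor of Ccl3 and Ccl5, was at 11.83 and 11.78 against 4.97 and 4.27 (log2 difference 7.18, SE 0.40, adjusted p = 9.31e-05). In the other direction, Cx3cr1, the fractalkine receptor of monocytes, was at 6.73 and 7.13 against 10.45 and 10.70 (log2 difference -3.64, SE 0.41, adjusted p = 0.00115), and Ccr2, which brings inflammatory monocytes to tissue, at 8.88 and 7.34 against 11.39 and 11.60 (log2 difference -3.38, SE 0.48, adjusted p = 0.00268). Ccr7, which guides dendritic cells to lymph nodes, was at 5.84 and 5.60 against 9.15 and 8.54 (log2 difference -3.12, SE 0.59, adjusted p = 0.00921) and lost the call without eosinophil replicate 2 (-3.00, adjusted p = 0.0507) or macrophage replicate 1 (-2.82, adjusted p = 0.0872). The macrophage-labelled values of Ccr2 were close to the 11.10 and 11.54 of the neutrophil-labelled arrays. Itgb7, an integrin beta chain of mucosal homing, was at 7.97 and 7.73 against 10.94 and 10.85 (log2 difference -3.04, SE 0.42, adjusted p = 0.00257). The list of receptors and adhesion molecules gave 6 higher and 5 lower calls among 23 genes, beside 5.89% and 11.5% of all genes. In the 4 leave-out fits it gave 5, 3, 2 and 2 higher and 4, 4, 3 and 4 lower calls.

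Of the enzymes that make lipid mediators from arachidonic acid, 3 were called higher, with Alox15, given above, the third. Ptgs2, the inducible cyclooxygenase, was at 11.87 and 11.49 against 6.92 and 5.74 (log2 difference 5.35, SE 0.58, adjusted p = 0.000938). Alox5, which makes leukotriene precursors, was at 9.71 and 9.22 against 5.37 and 5.41 (log2 difference 4.07, SE 0.49, adjusted p = 0.00142), whereas its activating protein Alox5ap was at 11.97 and 12.31 against 12.08 and 11.97, with a 95% interval of the difference from -0.46 to 0.70. Lta4h, which makes leukotriene B4, was lower (log2 difference -1.62, SE 0.40, adjusted p = 0.0287), a call that ended without any 1 of the 4 arrays (log2 differences -1.41 to -1.83, adjusted p = 0.0643 to 0.179). The prostaglandin E2 receptors went in opposite directions. Ptger2 was at 9.71 and 9.20 against 4.40 and 4.57 (log2 difference 4.97, SE 0.51, adjusted p = 0.000708), and Ptger3 at 4.17 and 4.09 against 7.62 and 7.34 (log2 difference -3.35, SE 0.46, adjusted p = 0.00243). Over the 22 genes of the list, 4 were called higher and 2 lower, beside 5.89% and 11.5% of all genes. The median was 0.18. In the 4 leave-out fits 5, 4, 4 and 4 were called higher and 2, 1, 1 and 1 lower, with medians of 0.41, 0.27, 0.19 and 0.21.

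Genes of alternative activation, which IL-4 and IL-13 induce in macrophages, were more often higher on the eosinophil-labelled than on the macrophage-labelled arrays. Of 24, 10 were called higher and 3 lower (median 0.92), beside 5.89% and 11.5% of all genes. Arg1, arginase, was at 9.03 and 9.01 against 4.56 and 4.50 (log2 difference 4.49, SE 0.31, adjusted p = 0.000161), and its arginine transporter Slc7a2 at 9.38 and 8.45 against 3.96 and 3.58 (log2 difference 5.15, SE 0.42, adjusted p = 0.000312). On the T2M-labelled arrays Arg1 was at 10.02, 10.38 and 9.88 and on the neutrophil-labelled arrays at 10.67 and 11.47, so that the macrophage-labelled arrays had the lowest Arg1 of the series. Tgm2, transglutaminase, was at 13.82 and 13.56 against 11.38 and 11.15 (log2 difference 2.43, SE 0.24, adjusted p = 0.000638). The 6 probe sets of Tgm2 gave differences from 0.26 to 3.35. Chil3, the chitinase-like protein Ym1, which neutrophil granules also hold, was at 12.14 and 12.15 against 10.74 and 10.96 (log2 difference 1.30, SE 0.32, adjusted p = 0.0285) and lost the call without any 1 of the 4 arrays (log2 differences 1.18 to 1.41, adjusted p = 0.0985 to 0.193). Clec10a, the macrophage galactose lectin, went the other way, at 6.43 and 6.69 against 10.44 and 10.17 (log2 difference -3.75, SE 0.42, adjusted p = 0.00111). Its relative Mgl2 was at 7.83 and 7.76 against 9.99 and 9.37 (adjusted p = 0.13). Klf4 (-2.39) and Irf4 (-1.82), transcription factors of that response, were the other two called lower and were named after their values were seen. Klf4 lost the call without macrophage replicate 1 (-2.20, adjusted p = 0.0549), and Irf4 without macrophage replicate 1 (-1.77, adjusted p = 0.052). Ccl17, a chemokine of dendritic cells and alternatively activated macrophages, was higher (log2 difference 3.12, SE 0.53) and lost the call without macrophage replicate 1 (3.08, adjusted p = 0.0558). The 4 leave-out fits called 7, 7, 5 and 6 members higher and 3, 3, 1 and 3 lower.

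Of 16 type 2 cytokine and receptor genes, 2 were called higher and 0 lower, beside 5.89% and 11.5% of all genes. Their median difference was 0.72. Il1rap, the shared subunit of the receptors for interleukin-1, interleukin-33 and interleukin-36, was at 11.87 and 11.95 against 6.93 and 7.00 (log2 difference 4.95, SE 0.72, adjusted p = 0.0032). Il13ra1, a subunit of the IL-13 receptor, was at 11.93 and 11.57 against 9.91 and 9.89 (log2 difference 1.85, SE 0.45, adjusted p = 0.025) and lost the call without any 1 of the 4 arrays (log2 differences 1.67 to 2.03, adjusted p = 0.0698 to 0.141). Csf2, which encodes GM-CSF, was at 5.64 and 5.69 against 4.37 and 4.54 (adjusted p = 0.267), and Il7r, a subunit of the receptors for IL-7 and thymic stromal lymphopoietin, at 8.27 and 6.97 against 6.05 and 5.64 (adjusted p = 0.192). Each of the 4 leave-out fits called 1 of these genes higher.

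Markers of alveolar macrophages, which the macrophage gate could hold, lay on both sides. Of 14 measured, 6 had the lower mean on the eosinophil-labelled arrays, without a call. On those arrays 5 were called higher and 0 lower (median 0.43), beside 5.89% and 11.5% of all genes. The 4 leave-out fits called 4, 4, 4 and 4 of these genes higher, with medians of 0.37, 0.76, 0.23 and 0.64. Car4, a membrane carbonic anhydrase, was at 12.61 and 11.84 against 5.66 and 5.45 (log2 difference 6.67, SE 0.40, adjusted p = 9.57e-05). Fabp5, a fatty acid-binding protein, was at 11.58 and 10.78 against 8.74 and 8.63 (log2 difference 2.49, SE 0.32, adjusted p = 0.00195), and Plet1, a surface protein, at 7.60 and 7.84 against 4.61 and 4.69 (log2 difference 3.07, SE 0.45, adjusted p = 0.00336). Siglecf, named above, is a member of this list as well. Pparg, the factor that alveolar macrophages require, was at 6.75 and 6.43 against 8.13 and 8.06 (adjusted p = 0.109), and Fabp4 at 9.13 and 6.48 against 9.18 and 9.22 (adjusted p = 0.304).

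Uptake and cholesterol genes were split by gene. Olr1, a receptor of oxidised lipoprotein, was at 9.93 and 10.45 against 4.77 and 4.55 (log2 difference 5.53, SE 0.39, adjusted p = 0.000161), and Abca1, which exports cholesterol, at 9.81 and 9.32 against 5.93 and 5.80 (log2 difference 3.70, SE 0.58, adjusted p = 0.00429). Cd300lf, an inhibitory receptor for lipids, was at 13.42 and 12.69 against 9.67 and 9.96 (log2 difference 3.24, SE 0.53, adjusted p = 0.00522) and lost the call without macrophage replicate 1 (3.10, adjusted p = 0.054). Scarb1, the receptor of high-density lipoprotein, went the other way, at 6.61 and 6.66 against 10.41 and 10.14 (log2 difference -3.64, SE 0.41, adjusted p = 0.00114), as did Lrp1, a large endocytic receptor, at 7.49 and 6.91 against 9.91 and 10.20 (log2 difference -2.86, SE 0.34, adjusted p = 0.00133). Srebf2, the activator of cholesterol synthesis, was at 6.93 and 8.14 against 9.91 and 9.67 (log2 difference -2.25, SE 0.44, adjusted p = 0.0108), and Scd2, a fatty acid desaturase, at 6.43 and 6.19 against 8.90 and 8.80 (log2 difference -2.53, SE 0.59, adjusted p = 0.0214). Srebf2 lost the call without any 1 of the 4 arrays except eosinophil replicate 2 (log2 differences -1.65 to -2.38, adjusted p = 0.0503 to 0.0939), and Scd2 without any 1 of the 4 arrays (log2 differences -2.41 to -2.65, adjusted p = 0.0706 to 0.133). Of 25 lipid and cholesterol genes, 2 were called higher and 5 lower, beside 5.89% and 11.5% of all genes. The 4 leave-out fits called 0, 1, 0 and 0 of them lower. Of 24 uptake receptors, 4 were called higher and 2 lower (median 0.09), beside the same shares of all genes. The 4 leave-out fits called 2, 3, 1 and 2 of these higher, with medians of -0.22, 0.10, 0.11 and 0.06. Cd163, a haemoglobin scavenger receptor, was at 9.87 and 6.98 against 7.80 and 7.66, with the eosinophil-labelled arrays on both sides of the macrophage-labelled ones.

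Interferon-induced genes moved in both directions, with 9 of 27 called higher and 4 lower (median 0.42), beside 5.89% and 11.5% of all genes. Gbp2, a guanylate-binding protein, was at 10.46 and 10.59 against 6.12 and 5.85 (log2 difference 4.53, SE 0.53, adjusted p = 0.00127), and Ifit1, which binds viral RNA, at 8.42 and 8.66 against 5.75 and 6.17 (log2 difference 2.58, SE 0.33, adjusted p = 0.00181). Oasl1 and Oasl2, of the oligoadenylate synthetase-like family, differed by 3.46 (SE 0.51) and 2.74 (SE 0.30). On the T2M-labelled arrays Ifit1 was at 5.83, 5.13 and 5.90 and on the neutrophil-labelled arrays at 5.59 and 5.24, so that the eosinophil-labelled arrays were the high ones of the series. Mx1, an antiviral GTPase, was lower instead, at 4.73 and 4.21 against 7.08 and 7.23 (log2 difference -2.68, SE 0.34, adjusted p = 0.00179). Ifit3, with 2 matches to the interferon motif in its window, was at 8.88 and 8.35 against 7.57 and 7.90 and was not called (adjusted p = 0.0997). In the 4 leave-out fits 8, 8, 6 and 6 genes of the list were called higher and 2, 4, 1 and 2 lower.

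Immediate early genes were higher in 9 of 19 cases and lower in 0 (median 1.05), beside 5.89% and 11.5% of all genes. Nr4a3, an orphan nuclear receptor, was at 11.96 and 10.87 against 5.72 and 5.63 (log2 difference 5.74, SE 0.51, adjusted p = 0.000417), and Egr3 at 10.44 and 10.16 against 6.38 and 5.20 (log2 difference 4.51, SE 0.50, adjusted p = 0.00109). Fosl2, a partner of Jun proteins, differed by 3.18 (SE 0.27) and Ier3 by 2.45 (SE 0.33). Fos itself was high on all 4 arrays, at 12.19 and 12.32 against 12.33 and 12.10, with a 95% interval of the difference from -0.58 to 0.67. Myc (8.59 and 7.90 against 10.11 and 9.55, adjusted p = 0.0822) and Atf3 (9.75 and 10.12 against 11.63 and 10.70, adjusted p = 0.0532) had lower values without a call. Without 1 array, in the order given, 6, 7, 6 and 5 members were called higher.

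Among hypoxia and glucose genes, 6 of 18 were called higher and 0 lower, beside 5.89% and 11.5% of all genes. They were Egln3, Hif1a, Vegfa, Slc2a1, Slc2a3 and Pfkfb3, the last a regulator of glycolysis (log2 difference 1.04, SE 0.26). Hif1a, the oxygen-regulated factor, was at 11.90 and 11.72 against 9.47 and 9.56 (log2 difference 2.29, SE 0.30, adjusted p = 0.00199), and its target Vegfa at 8.26 and 8.34 against 5.45 and 5.33 (log2 difference 2.91, SE 0.33, adjusted p = 0.00111). Slc2a1, a glucose transporter, was at 12.71 and 12.94 against 9.98 and 9.64 (log2 difference 3.02, SE 0.28, adjusted p = 0.000517). Slc2a3, another glucose transporter, differed by 1.70 (SE 0.32), with no call without eosinophil replicate 2 (1.59, adjusted p = 0.0531) or macrophage replicate 2 (1.45, adjusted p = 0.0878). Pfkfb3 lost the call without any 1 of the 4 arrays (log2 differences 0.94 to 1.15, adjusted p = 0.0723 to 0.186). Hk3, a hexokinase of myeloid cells, was at 9.16 and 11.21 against 8.14 and 8.08 (adjusted p = 0.0511), and Hk1 at 8.10 and 8.73 against 7.55 and 7.45 (adjusted p = 0.107).

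MHC class II genes were lower on the eosinophil-labelled arrays in 9 of 10 cases, with a median difference of -2.85, beside 11.5% of all genes called lower. The gate selected on MHC class II protein, so these values check the sort. H2-DMb2 and H2-DMa, which load peptides onto class II molecules, were both lower. H2-DMb2 was at 7.06 and 7.51 against 12.01 and 12.01 (log2 difference -4.72, SE 0.71, adjusted p = 0.00369), and H2-DMa at 6.81 and 7.88 against 11.75 and 11.73 (log2 difference -4.40, SE 0.89, adjusted p = 0.0124). H2-Oa, which restrains that loading in B cells and dendritic cells, was at 6.39 and 7.11 against 11.56 and 11.26 (log2 difference -4.66, SE 0.46, adjusted p = 0.000623), and at 6.61, 7.61 and 8.05 on the T2M-labelled and 6.75 and 6.78 on the neutrophil-labelled arrays. The macrophage-labelled arrays thus stood apart from all 7 others for H2-Oa, while for H2-Eb1 neutrophil-labelled arrays were at 11.87 and 12.87. H2-Ob, its partner, was at 9.01 and 8.34 against 11.08 and 10.96 and was the member not called (adjusted p = 0.109, but 0.00611 with only the 4 arrays in the fit). Ciita, H2-DMb2 and H2-Oa kept the call in the 4 leave-out fits. H2-DMa lost it without any 1 of the 4 arrays except eosinophil replicate 2 (log2 differences -3.86 to -4.40, adjusted p = 0.0699 to 0.0864), H2-Eb1 without any 1 of the 4 arrays except eosinophil replicate 1 (log2 differences -2.96 to -3.00, adjusted p = 0.0529 to 0.0826) and H2-Ab1 without any 1 of the 4 arrays (log2 differences -2.65 to -2.81, adjusted p = 0.0799 to 0.121). Cd80, a co-stimulatory ligand, was higher instead, at 11.18 and 11.38 against 8.07 and 8.00 (log2 difference 3.24, SE 0.28, adjusted p = 0.000381). Over the 20 antigen presentation genes the 4 leave-out fits gave 5, 4, 3 and 3 lower calls.

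Of 15 dendritic cell genes, 9 were called lower and 1, Ccl17, higher, beside 11.5% and 5.89% of all genes. Their median difference was -1.82. Flt3, the growth factor receptor of dendritic cells, was at 4.39 and 4.62 against 8.48 and 8.21 (log2 difference -3.84, SE 0.40, adjusted p = 0.000809), and Zbtb46, a transcription factor of conventional dendritic cells, at 5.56 and 5.97 against 9.48 and 9.05 (log2 difference -3.50, SE 0.39, adjusted p = 0.00106). Irf8, which specifies dendritic cells and monocytes, was at 5.61 and 6.28 against 9.69 and 9.56 (log2 difference -3.68, SE 0.39, adjusted p = 0.00084). Dpp4, a surface peptidase, differed by -4.22 (SE 0.54) and Kmo, an enzyme of tryptophan breakdown, by -4.03 (SE 0.41). Flt3 was at 4.45 and 5.53 on the neutrophil-labelled and 4.11, 4.92 and 4.61 on the T2M-labelled arrays, so that only the 2 macrophage-labelled arrays of the 9 were well above the array median. Xcr1, a receptor of cross-presenting dendritic cells, was at 4.18 and 4.09 against 5.49 and 5.13 (adjusted p = 0.0655). Whether the macrophage-labelled sort held dendritic cells was not tested. The leave-out fits gave 8, 9, 6 and 8 lower calls.

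Macrophage and monocyte genes went both ways, from -3.64 (Cx3cr1) to 4.36 (Cd14), with a median difference of -0.13. Of 21, 3 were called higher and 3 lower, beside 5.89% and 11.5% of all genes. The eosinophil-labelled arrays lay above the macrophage-labelled ones without overlap for 6 members and below for 10, beside 46.1% and 31.7% of all genes. Csf1r, the receptor on which macrophages depend, was high on both labels, at 13.03 and 12.25 against 12.72 and 12.81 (adjusted p = 0.826, while its probe set of largest variance was called lower, with a log2 difference of -1.84 and an adjusted p of 0.0425), as was Lyz2, lysozyme, at 12.53 and 12.84 against 13.13 and 13.18 (adjusted p = 0.204). Mertk, a receptor of apoptotic cells and a defining macrophage gene, was at 6.89 and 5.55 against 6.03 and 5.57 (adjusted p = 0.597). C1qb, a complement subunit of tissue macrophages, was higher on the eosinophil-labelled arrays, at 11.08 and 10.12 against 8.61 and 8.15 (log2 difference 2.22, SE 0.41, adjusted p = 0.0085), and was at 12.48 and 11.85 on the neutrophil-labelled and 12.67, 12.51 and 11.99 on the T2M-labelled arrays. Its call ended without macrophage replicate 2 (1.99, adjusted p = 0.0765), and the probe set of largest variance gave 0.94 (adjusted p = 0.268). The macrophage-labelled arrays were thus the lowest of the series in C1qb. C5ar1, the receptor of the complement fragment C5a, was at 12.50 and 12.48 against 9.12 and 9.06 (log2 difference 3.40, SE 0.23, adjusted p = 0.000157). C1qb and C5ar1 belong to a separate list of 11 measured complement genes (median 0.58). They were its 2 members called higher, with 0 lower, beside 5.89% and 11.5% of all genes. Of the 3 C1q subunits only C1qb was called, and C1qc was at 9.05 and 8.88 against 7.82 and 7.28 (adjusted p = 0.0607). Apoe, apolipoprotein E, was at 6.53 and 7.46 against 9.09 and 8.95 (log2 difference -2.02, SE 0.58, adjusted p = 0.0456), a call that ended without any 1 of the 4 arrays (log2 differences -1.56 to -2.49, adjusted p = 0.0668 to 0.218) or T2M replicate 3 (-2.02, adjusted p = 0.0684). The leave-out fits called 2, 2, 1 and 1 members of the macrophage list higher and 2, 2, 2 and 2 lower, with medians of -0.25, -0.22, -0.17 and -0.08.

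Lysosome genes were changed in both directions, with 7 of 49 called higher and 8 lower, against 5.89% and 11.5% over all genes (median -0.28). Neu1, lysosomal sialidase, was at 10.05 and 9.77 against 6.42 and 6.26 (log2 difference 3.57, SE 0.24, adjusted p = 0.000154). The 3 probe sets of Neu1 gave differences from 0.0083 to 3.57, so the result depends on the probe set. Ctsh, a cathepsin, was at 9.10 and 8.80 against 11.54 and 11.49 (log2 difference -2.56, SE 0.33, adjusted p = 0.00181). Tfec, of the family of E-box factors that drive lysosome genes, was at 9.89 and 9.42 against 7.47 and 7.01 (log2 difference 2.41, SE 0.43, adjusted p = 0.00732) and lost the call without macrophage replicate 2 (2.18, adjusted p = 0.0691). Ctsd, a cathepsin, was at 10.06 and 12.54 against 9.70 and 9.28 (adjusted p = 0.307), with the eosinophil-labelled arrays far apart. The leave-out fits gave 5, 6, 3 and 2 higher and 4, 5, 1 and 1 lower calls, with medians of -0.12, -0.40, -0.16 and -0.37. Of 10 Fc receptor genes 1 was called, beside 17.4% of all genes called in either direction. It was Fcgrt, the neonatal Fc receptor, at 6.87 and 8.12 against 10.97 and 10.97 (log2 difference -3.47, SE 0.67, adjusted p = 0.0104). Fcgrt lost the call without any 1 of the 4 arrays except eosinophil replicate 2 (log2 differences -2.85 to -3.48). Of 16 genes of oxidative killing, 4 were called higher and 2, Cybb and Sod1, lower, beside 5.89% and 11.5% of all genes. The 4 leave-out fits gave 4, 3, 2 and 2 higher and 3, 2, 0 and 0 lower calls, with medians of 0.96, 0.16, 0.51 and 0.57. Sod2, the mitochondrial superoxide dismutase, was at 11.93 and 11.83 against 9.67 and 9.74 (log2 difference 2.18, SE 0.26, adjusted p = 0.00142) and Txnrd1, thioredoxin reductase, at 10.67 and 10.92 against 8.52 and 8.39 (log2 difference 2.34, SE 0.34, adjusted p = 0.00294). Sod1, the cytosolic enzyme, was lower (log2 difference -1.38, SE 0.25), with no call without macrophage replicate 1 (-1.37, adjusted p = 0.078) or macrophage replicate 2 (-1.39, adjusted p = 0.0684).

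Transcription factors of the myeloid lineages fell on both sides, 9 of 27 higher and 6 lower, beside 5.89% and 11.5% of all genes. Gfi1, which granulocyte development requires, was at 7.51 and 6.98 against 4.47 and 4.41 (log2 difference 2.80, SE 0.39, adjusted p = 0.00251). Egr2 was at 12.28 and 11.83 against 9.37 and 9.10 (log2 difference 2.82, SE 0.28, adjusted p = 0.000638), and Id1, an inhibitor of helix-loop-helix factors, at 8.60 and 10.33 against 6.56 and 5.94 (log2 difference 3.22, SE 0.59, adjusted p = 0.00874). Cebpa, the factor of early granulocyte and monocyte precursors, was at 7.30 and 7.18 against 10.34 and 10.81 (log2 difference -3.34, SE 0.60, adjusted p = 0.00757). Id1 lost the call without macrophage replicate 2 (2.91, adjusted p = 0.0746), and Cebpa without macrophage replicate 2 (-3.10, adjusted p = 0.0663). Spic, a factor of iron-recycling macrophages, was at 4.85 and 4.51 against 9.13 and 9.06 (log2 difference -4.41, SE 0.95, adjusted p = 0.0164), with no call without any 1 of the 4 arrays (log2 differences -4.25 to -4.58, adjusted p = 0.0591 to 0.105). The leave-out fits called 8, 7, 6 and 4 factors higher and 4, 4, 2 and 3 lower.

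Ribosomal protein genes were lower on the eosinophil-labelled arrays in 11 of 14 cases and higher in 0, beside 11.5% and 5.89% of all genes. Their median difference was -2.08. Rpl4 was at 11.07 and 10.34 against 12.99 and 12.97 (log2 difference -2.27, SE 0.31, adjusted p = 0.0023), Rpl7 at 9.48 and 10.30 against 12.58 and 12.48 (log2 difference -2.64, SE 0.33, adjusted p = 0.00177) and Rpl22 at 11.08 and 10.96 against 13.46 and 13.18 (log2 difference -2.30, SE 0.28, adjusted p = 0.00151). By the probe set used for each gene, both eosinophil-labelled arrays lay below both macrophage-labelled arrays in all 14. Over all genes that share was 31.7%. Other probe sets had the opposite sign for Rps18 (2 of 6) and Rps24 (1 of 6). The same held for Rps3 (1 of 3, 0.38) and Rps9 (2 of 3, up to 1.49). Rps3 (11.01 and 11.79 against 12.91 and 13.10), Rps6 (5.94 and 4.77 against 6.51 and 6.34) and Rps9 (9.84 and 12.27 against 13.01 and 13.01) were not called, and for Rps9 another probe set of the gene was called in the other direction. Genes of the respiratory chain and the tricarboxylic acid cycle were lower in 12 of 21 cases and higher in 0 (median -1.51). Atp5b, a subunit of ATP synthase, was at 9.26 and 10.14 against 12.13 and 11.89 (log2 difference -2.31, SE 0.43, adjusted p = 0.00921), and Idh2, a mitochondrial isocitrate dehydrogenase, at 7.07 and 8.23 against 10.45 and 10.02 (log2 difference -2.59, SE 0.47, adjusted p = 0.00827). Atp5b lost the call without any 1 of the 4 arrays except eosinophil replicate 2 (log2 differences -1.87 to -2.43, adjusted p = 0.0533 to 0.0836), and Idh2 without macrophage replicate 1 (-2.37, adjusted p = 0.0807).

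The leave-out fits called 8, 8, 6 and 6 ribosomal and 7, 6, 1 and 2 respiratory genes lower. Without eosinophil replicate 1, which had the raised actin 3′ minus 5′ difference, the median of the ribosomal genes was -1.88. The transferrin receptor control probe sets gave 3′ minus 5′ differences of 1.86 and 0.03 on the eosinophil-labelled arrays and -0.71 and -0.84 on the macrophage-labelled arrays, and the part of RNA integrity in these counts was not tested.

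**Figure D5:**
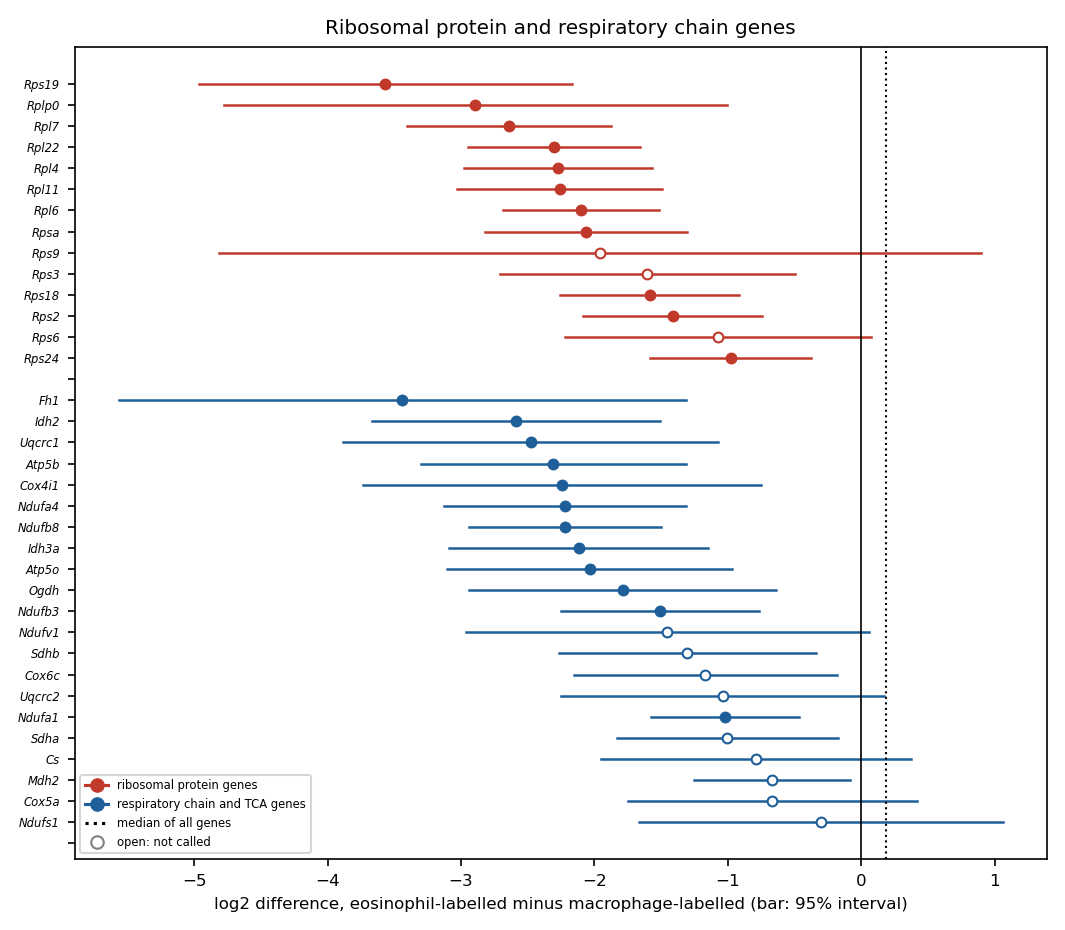
Log2 differences, eosinophil-labelled minus macrophage-labelled, of 14 ribosomal protein genes and 21 respiratory chain and TCA genes with their 95% intervals (limma, all 9 arrays). Filled points passed the test, open points did not, and the dotted line is the median of all genes, 0.18. All 35 points lie below 0.

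Markers of cells that a CD11b sort could carry along were mostly not called, as was the case for all genes. Of these, 5.89% were called higher and 11.5% lower. Of 12 T cell and innate lymphoid genes, 1 was higher and 2 lower. Cd4, also carried by some dendritic cells, was at 6.45 and 7.13 against 11.18 and 10.88 (log2 difference -4.24, SE 0.45, adjusted p = 0.00084), while Cd3d, a T cell receptor subunit, was higher, at 7.69 and 9.08 against 5.96 and 5.74 (log2 difference 2.54, SE 0.44, adjusted p = 0.00695). The partner subunit Cd3g was low on all 4 arrays, at 5.77 and 4.45 against 4.49 and 4.43 (adjusted p = 0.432), and Cd3d lost the call without macrophage replicate 1 (2.65, adjusted p = 0.0527) or macrophage replicate 2 (2.43, adjusted p = 0.0618). Cd79b, of the B cell receptor, was at 5.90 and 5.05 against 8.35 and 7.97 (log2 difference -2.69, SE 0.35, adjusted p = 0.0019), 1 of 2 B cell genes lower among 11. Klrk1, an activating receptor of natural killer cells, was at 3.83 and 4.94 against 7.40 and 7.48 (log2 difference -3.05, SE 0.42, adjusted p = 0.00253), 1 of 2 lower among 10 NK genes. Of 11 mast cell and basophil genes, 10 had the higher mean on the eosinophil-labelled arrays, and 1 was called higher, Hdc, given above. Kit, the mast cell growth factor receptor, was the 1 called lower and the only member with a negative difference. It was at 4.70 and 3.71 against 7.72 and 7.57 (log2 difference -3.44, SE 0.40, adjusted p = 0.00128). Of 24 epithelial, endothelial and stromal genes, 3 were called higher and 0 lower, with a median difference of 0.95. The mean was higher on the eosinophil-labelled arrays for 22 of them. For 19 the arrays did not overlap in that direction, as for 46.1% of all genes. Acta2, smooth muscle actin, was at 10.74 and 10.66 against 5.52 and 6.18 (log2 difference 4.85, SE 0.51, adjusted p = 0.000841). The 3 probe sets of Acta2 gave differences from 0.76 to 4.85. Cdh1, E-cadherin, which alveolar macrophages also carry, was at 10.11 and 9.66 against 6.04 and 5.18 (log2 difference 4.27, SE 0.55, adjusted p = 0.00195). Krt18, a keratin, differed by 1.70 (SE 0.34). Krt18 lost the call without any 1 of the 4 arrays except eosinophil replicate 1 (log2 differences 1.50 to 1.72, adjusted p = 0.0737 to 0.0984). Scgb1a1, the secretoglobin of airway club cells, was at 9.99 and 10.69 against 6.54 and 7.56 (adjusted p = 0.0923). With each array left out in turn, 1, 1, 0 and 0 T cell genes were called higher and 1, 1, 1 and 1 lower, 2, 1, 1 and 1 B cell genes lower, 2, 1, 1 and 2 NK genes lower and 3, 3, 2 and 2 structural genes higher. The part of such cells in any difference was not tested.

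Some genes were high on both labels with differences bounded within 2-fold. Among list members whose 95% interval lay between -1 and 1, the highest levels were those of Actb and Tmsb4x, of the actin cytoskeleton. Actb was at 13.31 and 13.56 against 13.34 and 13.38 (interval -0.47 to 0.61) and Tmsb4x, which binds actin monomers, at 13.28 and 13.37 against 13.33 and 13.35 (interval -0.51 to 0.47). B2m, the light chain of MHC class I, was at 13.25 and 13.47 against 13.03 and 13.10 (interval -0.24 to 0.82), and Itgb2, the beta chain shared by CD11b, at 12.47 and 12.29 against 12.01 and 12.04 (interval -0.17 to 0.88). Fos and Alox5ap, given above, were among the same 10 genes.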

How the data were processed

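RNA from 9 sorted samples was measured on Affymetrix mouse arrays. The authors deposited log2 values per probe set, and the submitters' processing notes name RMA, affy and limma without versions. How arrays were scaled to each other is not given in the sources used here. Of 45101 probe sets, 64 controls were left out, 34945 had 1 gene symbol in the platform annotation, 932 several and 9160 none. Symbols were matched to RefSeq by gene ID for 34741 probe sets and 0 changed. A gene with several probe sets was taken by the one of highest mean level across the 9 arrays, which gave 18193 genes, 9010 of them with several probe sets.

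Group means were fitted with limma 3.58.1 (R 4.3.3, lmFit and eBayes) to all 9 arrays, with 5 residual and 3.26 prior degrees of freedom, and the contrast eosinophil-labelled minus macrophage-labelled was tested with Benjamini-Hochberg adjustment. The median standard error of a log2 difference was 0.34, and the number of arrays limits the precision. The fit was tested on simulated data. The members and the 37 gene lists (588 listed genes measured) were chosen with earlier results of these data known. Genes were named by rule. It took the gate genes, the 15 largest called differences in each direction whose groups did not overlap, and up to 6 called and 3 uncalled members of largest difference from each list. It also took all eosinophil, neutrophil, granule, macrophage and ribosomal list members, and the 10 list members of highest level whose 95% interval lay between -1 and 1. Names outside the rule are said to have been chosen after their values were seen. Of 147 genes named by rule with several probe sets, 21 had a probe set with a difference of opposite sign. Among them were Rnf144b (0.54), Top2a (0.80), Sod1 (0.40) and H2-Aa (0.02). The difference of opposite sign was called for Mt1 and Rps9. Another probe set could also give a far smaller difference of the same sign, as for Vav2 (-0.50), Bcl2 (-0.19), Tlr3 (-0.37) and Il13ra1 (0.16). Promoter windows came from the RefSeq table of build GRCm38.p6, with the first listed start of a gene, and 2661 genes had several. Alternatives changed the probe set, the filter, the scaling, the arrays in the fit, the moderation, the array weights and the replicates.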

Additional observations from a re-analysis of the deposited data

How the results depend on the processing

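Of the main counts of 1071 genes higher and 2092 lower, all but 3 settings besides those that left out 1 array stayed within 1.5 times. Those 3 gave 1970 and 3249 with only the 4 arrays compared, 2679 and 3721 with array weights, and 420 and 487 with the macrophage-labelled arrays averaged as 1. Leaving out 1 of the 9 arrays in turn gave 421 to 1657 higher and 441 to 2663 lower. Whether the replicate numbers pair the labels cannot be read from these arrays. The 2 macrophage-labelled arrays, which may hold 1 RNA, had replicate differences with an SD of 0.24 over genes. That of the eosinophil-labelled arrays was 0.67. The replicate differences of the 2 labels correlated at r = -0.03 over genes. The same correlation was 0.51 between the eosinophil-labelled and T2M-labelled arrays, whose replicates 1 had actin 3′ minus 5′ differences of 0.54 and 0.61. The replicate block gave 873 and 1724. A common array median gave 1303 and 1821, and quantile normalization 1095 and 1407. Of 162 called genes named here, not counting Bcl2l11, 114 kept the call in every setting in which the gene was tested. Genes below the median level were absent from the fit limited to genes above it. The fit of every probe set was not part of this count. The call ended for 5 with quantile normalization, 5 with the replicate block and 3 with a common array median. It ended for 22 and 21 without eosinophil replicates 1 and 2, for 40 and 38 without macrophage replicates 1 and 2, and for 42 with the macrophage-labelled arrays averaged. Quantile normalization ended the calls of Apoe (adjusted p = 0.148), Lta4h (0.112), Mcm2 (0.0599) and Ddit4 (0.0507), beside Tlr9. The sign turned for the called Lta4h (0.16) and Pycard (1.52) with the probe set of largest variance. Among uncalled genes it turned for Hk1 (-0.64) with that probe set, for Alox5ap (-0.043) and Fos (-0.13) with quantile normalization and for Tmsb4x (0.074) with a common median. With 1 array left out, the difference ranged from -0.055 to 0.20 for Actb, from -0.051 to 0.29 for Alox5ap, from -0.75 to 2.15 for Cd163, from -0.0080 to 1.31 for Cd3g, from -0.52 to 0.26 for Csf1r, from -0.078 to 0.16 for Fos, from -0.24 to 1.09 for Mertk and from -0.067 to 0.024 for Tmsb4x. The cause was not tested in these cases. Differences near the median standard error of 0.34 are at the limit of the precision of these arrays.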

Other observations

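Of 22 cell cycle genes, 1 was called higher on the eosinophil-labelled arrays and 3 lower, beside 5.89% and 11.5% of all genes. Their median difference was -0.92 against 0.18 over all genes. Mcm3, of the replicative helicase, was at 6.89 and 6.59 against 8.81 and 8.58 (log2 difference -1.96, SE 0.33, adjusted p = 0.00567), and its partner Mcm2 at 5.44 and 5.44 against 7.50 and 7.22 (log2 difference -1.92, SE 0.51, adjusted p = 0.0367). Top2a, a topoisomerase of dividing cells, differed by -1.39 (SE 0.31). Mki67, a marker of cycling cells, went the other way (log2 difference 1.31, SE 0.29, adjusted p = 0.0184). Mcm3 lost the call without macrophage replicate 1 (-1.84, adjusted p = 0.0654), Mcm2 without any 1 of the 4 arrays (log2 differences -1.78 to -2.06, adjusted p = 0.118 to 0.207) or T2M replicate 3 (-1.92, adjusted p = 0.0518), Top2a without any 1 of the 4 arrays except eosinophil replicate 1 (log2 differences -1.10 to -1.49, adjusted p = 0.0902 to 0.142) and Mki67 without any 1 of the 4 arrays except eosinophil replicate 2 (log2 differences 0.92 to 1.44, adjusted p = 0.0829 to 0.157). In the 4 leave-out fits 0, 1, 0 and 0 of these genes were called higher and 3, 1, 0 and 1 lower, with medians of -1.17, -0.50, -0.80 and -0.98.

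Among glucocorticoid-induced genes, Hsd11b1, which regenerates active corticosterone, was at 9.07 and 9.56 on the eosinophil-labelled and 5.55 and 5.57 on the macrophage-labelled arrays (log2 difference 3.76, SE 0.25, adjusted p = 0.000139). Mt2, a metallothionein, was at 10.17 and 10.37 against 6.34 and 6.45 (log2 difference 3.88, SE 0.33, adjusted p = 0.000336). Ddit4, which restrains the growth kinase mTOR, was lower, at 8.72 and 9.68 against 11.12 and 11.05 (log2 difference -1.89, SE 0.48, adjusted p = 0.0311), and lost the call without any 1 of the 4 arrays except eosinophil replicate 2 (log2 differences -1.41 to -1.92, adjusted p = 0.138 to 0.17). Of 14 such genes, 4 were called higher and 1 lower, beside 5.89% and 11.5% of all genes. The leave-out fits gave 3, 4, 3 and 3 higher and 0, 1, 0 and 0 lower calls. Of 11 genes of the BCL2 family, which decides on survival and death, 2 were called higher and 1 lower, beside the same shares of all genes. For this family the leave-out fits gave 1, 0, 0 and 0 higher and 1, 2, 1 and 1 lower calls. Bcl2, the founding survival gene, was at 6.71 and 6.97 against 9.04 and 8.80 (log2 difference -2.08, SE 0.27, adjusted p = 0.00191), and the survival gene Bcl2l1 was higher (log2 difference 1.38, SE 0.35, adjusted p = 0.0306), with no call without any 1 of the 4 arrays except eosinophil replicate 1 (log2 differences 1.02 to 1.45, adjusted p = 0.146 to 0.167). Bcl2l11 was the other family member called higher, at 12.20 and 12.30 against 10.92 and 11.01 (log2 difference 1.28, SE 0.28, adjusted p = 0.0178). These values carry no explanation here.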
